A study of Mus musculus with 9 samples.

Results

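Integrin subunits and laminin chains were read as 1 family of adhesion genes in mouse primary renal tubular epithelial cells. Members were the protein-coding rows of the expression table whose symbol names an integrin alpha subunit, an integrin beta subunit from Itgb1 to Itgb8, or a laminin alpha, beta or gamma chain. The rule used no measured value. It found 37 of the 31167 genes in the table, made up of 18 integrin alpha subunits, 8 integrin beta subunits and 11 laminin chains.

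Integrins are cell surface receptors made of an alpha and a beta subunit, and the pair of subunits sets the ligand that is bound. In the kidney, tubular cells stand on a basement membrane of laminins, which are trimers of an alpha, a beta and a gamma chain, and hold to it through laminin receptors that contain alpha3 or alpha6. Other integrins bind collagen, or fibronectin and related ligands through an RGD motif, and one set that pairs with beta2 or beta7 is made by leukocytes.

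RNA was sequenced from 9 libraries of cells from C57BL/6 kidney, 3 in each of 3 groups. Sham was the untreated control group. H/R cells were held at 1.0% oxygen in glucose-free medium for 6 h and then returned to complete medium for 18 h, which mimics ischemia and reperfusion in culture. EGR1OV cells were transfected with EndoFectin Max and a plasmid, built on pReceiver-M02, that drives Egr1 from a CMV promoter in any cell that takes it up. The study's description gives Sham as untreated and names only the plasmid for EGR1OV. Its methods describe transfection ahead of H/R, and the labels do not say whether EGR1OV cells also had H/R. No empty plasmid is among these groups, so transfection itself and Egr1 cannot be told apart. The labels do not say whether the libraries of a group came from separate cultures or animals, so p-values measure only the spread between these libraries, which may be technical.

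Values were FPKM, which corrects fragment numbers for exon length and library size, so levels of different genes can be compared per length. The depth recovered from the table was 16183617 to 18384022 reads per library, and 3 reads were taken as the floor. Egr1 was at 6.09 to 6.91 FPKM in Sham, then 7.48 to 8.57 in H/R and then 40.1 to 45.7 in EGR1OV, as the labels say, although reads of the plasmid may be counted there. Epithelial markers were present, with Epcam at 76.2 ± 0.881, Cdh1 at 86.2 ± 0.247 and Pax8 at 13.1 ± 0.279 FPKM in Sham (SD, n = 3). Their list holds 9 tubule epithelial genes, mostly Krt8 and Krt18 by FPKM. It summed to 1926 to 1963 FPKM in Sham, then 1783 to 1861 in H/R and then 1270 to 1376 in EGR1OV. By the test given below, 1 of the 9 was called higher and 3 lower in EGR1OV, beside 9.89% and 6.51% of all genes. In H/R 1 was called higher, beside 1.6% of all genes. The proximal tubule marker Lrp2 was low at 3.60 FPKM in Sham, and Slc34a1 was at 0.0043 FPKM. The 6 proximal tubule markers summed to 5.44 to 5.53 FPKM in Sham, then 4.84 to 5.29 in H/R and then 1.92 to 2.21 in EGR1OV. Umod, of the loop of Henle, was at 0 in all 9 libraries.

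All 37 members were above 0 in at least 1 library. The minimum for a test, an average of 0.5 FPKM across the libraries, was reached by 26 members and missed by 11, and 17 members were at 5 FPKM or more in Sham. The receptors were dominated by a single subunit. Itgb1, the beta subunit shared by the laminin, collagen and fibronectin receptors, was at 1271 ± 20.01 FPKM in Sham, rank 16 among all genes, and made up 91.2% of beta subunit FPKM and 66.2% of all integrin FPKM. Among alpha subunits, Itga3 of the laminin receptor was highest in Sham at 293 ± 5.31 FPKM, then Itga5 of the fibronectin receptor at 134 ± 1.12 and Itgav at 57.6 ± 0.854. Lamb1 led the laminin chains at 112 ± 1.79 FPKM, ahead of Lama5 at 63.4 ± 2.98. Replicates lay close together, with a median coefficient of variation over the 26 tested members of 2.47% in Sham, then 3.00% in H/R and then 3.43% in EGR1OV.

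**Figure D1:**
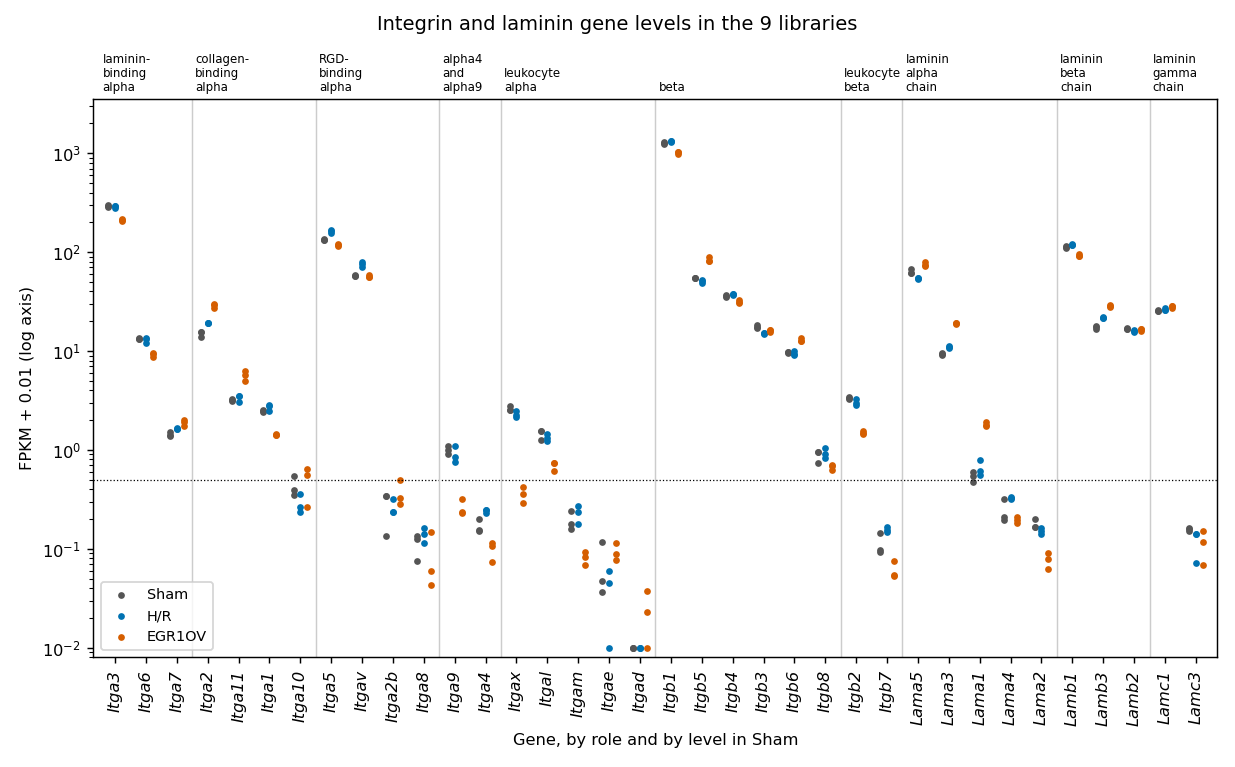
Levels of the integrin and laminin genes in each of the 9 libraries, as FPKM + 0.01 on a log axis, with genes grouped by role and ordered by their level in Sham. Each point is a library (grey Sham, blue H/R, orange EGR1OV) and the dotted line marks 0.5 FPKM. Itgb1 stands at the top, and the leukocyte integrins lie below 5 FPKM.

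The 11 members under the minimum were Itga2b, Itga4, Itga8, Itga10, Itgad, Itgae, Itgam, Itgb7, Lama2, Lama4 and Lamc3. Itgad, a leukocyte alpha subunit, was at 0 in 7 of the 9 libraries and reached 2 reads at most. Lama2, the muscle laminin alpha chain, was at 0.190, 0.158 and 0.156 FPKM in Sham and 0.0811, 0.0524 and 0.0691 in EGR1OV, which rests on 42 to 51 and 14 to 22 reads. The EGR1OV values of Lama2 lay below all Sham values. Itga4, an alpha subunit that binds Vcam1, stood at 33 to 44 reads in Sham and 15 to 24 in EGR1OV. For Itgam, 68.7% of the exon length is shared with Gm49368 on the same strand, and for Itga10, 33.5% is shared with Gm42957, so their levels are uncertain. These 11 genes were not tested.

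Promoter sequences are shown for 4 of the members with the largest changes in EGR1OV, among those with a window in the RefSeq table. They are the 250 bases before the start, 5′ to 3′ on the gene's strand, in build GRCm38.p6. Itga2 and Lamb3 rose and Itgax and Itga9 fell. Capitals mark an AP-1 heptamer in Itgax and the hypoxia response core in Itga9.
Itga2, chr13:114932101-114932350, minus strand: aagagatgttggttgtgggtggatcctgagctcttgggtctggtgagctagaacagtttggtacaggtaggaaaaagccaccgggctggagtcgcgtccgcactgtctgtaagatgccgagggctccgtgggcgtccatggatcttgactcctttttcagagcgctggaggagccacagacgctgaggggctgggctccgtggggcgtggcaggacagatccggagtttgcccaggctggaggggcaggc
Lamb3, chr1:193301744-193301993, plus strand: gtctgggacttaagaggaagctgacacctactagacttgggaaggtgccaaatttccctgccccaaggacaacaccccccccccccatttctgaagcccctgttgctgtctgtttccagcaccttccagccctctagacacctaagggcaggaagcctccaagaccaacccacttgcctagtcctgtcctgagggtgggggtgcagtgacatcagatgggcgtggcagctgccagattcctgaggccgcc
Itgax, chr7:128129300-128129549, plus strand: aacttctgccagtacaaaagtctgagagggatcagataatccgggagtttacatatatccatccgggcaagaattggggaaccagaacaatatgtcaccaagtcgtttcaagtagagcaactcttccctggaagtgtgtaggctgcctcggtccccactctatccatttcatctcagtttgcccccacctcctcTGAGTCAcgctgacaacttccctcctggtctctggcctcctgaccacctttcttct
Itga9, chr9:118711442-118711691, plus strand: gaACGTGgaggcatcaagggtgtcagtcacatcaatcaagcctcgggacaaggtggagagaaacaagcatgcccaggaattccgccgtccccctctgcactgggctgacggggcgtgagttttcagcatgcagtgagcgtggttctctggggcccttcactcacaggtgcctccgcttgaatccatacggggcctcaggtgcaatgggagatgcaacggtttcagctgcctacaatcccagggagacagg

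The Lamb3 window, 1 of 2 for this gene, lies 94295 bases inside the gene as the expression table draws it, and the Itga9 window lies 105002 bases inside, so both belong to shorter transcripts. A search of these windows on both strands covered 23 of the 37 members, which have 26 windows, and all 32851 windows of the table. The Egr1 core, GCGTGGGCG or GCGGGGGCG, was found before Lamb1 alone among members, and in 3.06% of all windows. The AP-1 heptamer TGACTCA was found before Itgax alone, and in 4.46% of all windows. The interferon-stimulated response core was found before Itga2b and Itga3, and in 2.98% of all windows. The hypoxia response core ACGTG was found before Itga9 alone, and in 16.6% of all windows. A match is a run of letters, not a bound site, and these letters may lie outside the windows searched. Lama3, Lama1 and Itgb2, also among the largest changes, have no window.

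EGR1OV against Sham asked which receptors and chains differ in cells with more Egr1. A gene was called where limma gave an adjusted p under 0.05 with a 1.3-fold change or more on the log2(FPKM + 1) scale, which understates the change of low genes. Of the 26 tested members 13 were called, 50% beside 16.4% of all genes. Rises were called for 6 members (9.89% of all genes) and falls for 7 (6.51% of all genes). Without the fold threshold 22 members passed, beside 45.9% of all genes. Rises were seen in the laminin chains Lama3, Lamb3 and Lama1, the collagen receptor subunits Itga2 and Itga11, and Itgb5. Falls were seen in the laminin receptor subunits Itga3 and Itga6, the collagen receptor subunit Itga1, Itga9, and the leukocyte subunits Itgax, Itgal and Itgb2. The median change was -0.09 over the tested members and 0.02 over all genes. By family, 8 of 11 alpha subunits, 2 of 7 beta subunits and 3 of 8 laminin chains were called.

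H/R against Sham asked which members differ after hypoxia and reoxygenation, with a fold threshold of 1.2. Of the 26 tested members 4 were called, 15.4% beside 4.25% of all genes, and all 4 were higher. Over all genes 1.6% were called higher and 2.65% lower. Without the fold threshold 7 members passed, beside 11.7% of all genes. The 4 were Itgav and Itga5, which form RGD-binding receptors, the collagen receptor subunit Itga2 and the laminin chain Lamb3. The median change was 0.03 over the tested members and -0.03 over all genes. None of the 7 beta subunits was called by limma, and limma voom on recovered reads also called none. At an unadjusted limma p under 0.05, 2 beta subunits were lower. Of these, Itgb3 also passed the adjusted p (0.0059) and missed only the fold threshold. The share of all genes at the unadjusted cutoff is not given here. The share of higher calls over all genes was 37.7% in the deposited values. Median-ratio scaling gave 57.9% and quantile normalization 56.5%, and the 4 members stayed higher under each.

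EGR1OV and H/R share the Sham libraries, so their changes against Sham are given side by side. Itga2 and Lamb3 were called against Sham in both groups, in the same direction. Another 11 members were called in EGR1OV and not in H/R, and Itga5 and Itgav in H/R and not in EGR1OV. The fold thresholds were unlike, at 1.3-fold for EGR1OV and 1.2-fold for H/R. Lama3, called in EGR1OV only, had a limma adjusted p of 0.0044 in H/R and missed the fold threshold there. The shares of all genes called in both groups or in a single group are not given here. The direct comparison, EGR1OV against H/R at 1.3-fold, called 17 of 26 members, 65.4% beside 18.9% of all genes. It called 7 higher (12.0% of all genes) and 10 lower (6.96% of all genes) in EGR1OV. Without the fold threshold 51.0% of all genes passed. The share of higher calls over all genes moved from 63.3% to 52.1% with median-ratio scaling or 42.5% with quantile normalization, against 60.3%, 55.8% and 45.8% for EGR1OV against Sham. Members called in none of the 3 comparisons included Itga7, Itgb3, Itgb4, Itgb8, Lamb1, Lamb2 and Lamc1.

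**Figure D2:**
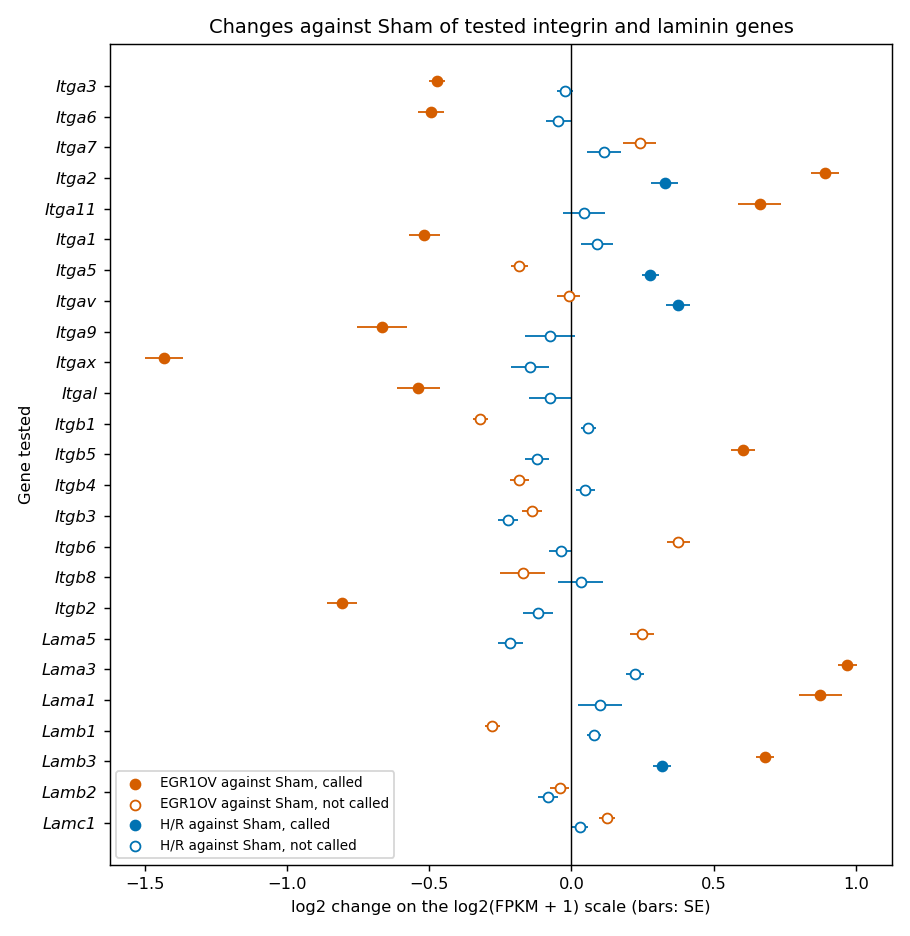
Change against Sham of tested genes on the log2(FPKM + 1) scale, with EGR1OV in orange and H/R in blue. Filled points were called, open points were not, and bars are the standard error from the limma fit over 9 libraries. Lama3 lies farthest to the right at 0.97 and Itgax farthest to the left at -1.43, both in EGR1OV, while H/R points stay between -0.22 and 0.37.

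Lama3 and Lamb3 encode an alpha and a beta chain that epithelia lay down in hemidesmosomes and at wound edges. Lama3 (ENSMUSG00000024421, chromosome 18 from 12333819 to 12583013) stood at 9.25, 9.48 and 9.04 FPKM in Sham. In H/R it was at 11.0, 10.6 and 11.3 FPKM, and in EGR1OV at 18.9, 19.2 and 19.2. The 3 groups did not overlap, with EGR1OV highest. Lama3 rose 2.06-fold in EGR1OV, a log2 change of 0.97 ± 0.03 (SE) with a limma adjusted p of 1.7e-08. In H/R the change of 0.22 ± 0.03 had an adjusted p of 0.0044 and stayed under the 1.2-fold threshold.

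Lamb3 (ENSMUSG00000026639, chromosome 1 from 193207699 to 193343878), the beta chain of the pair, was at 17.9, 16.8 and 17.4 FPKM in Sham. The H/R libraries were at 21.7, 22.3 and 21.7 FPKM, and the EGR1OV libraries at 27.7, 28.9 and 28.7. All H/R values lay above Sham and all EGR1OV values above H/R. The rise was 1.26-fold in H/R (log2 0.32 ± 0.03, adjusted p = 7.5e-04) and 1.64-fold in EGR1OV (log2 0.68 ± 0.03, adjusted p = 1.9e-07). Between EGR1OV and H/R the difference of 0.36 fell just short of the 1.3-fold threshold, and it was called without EGR1OV replicate 1, at 0.38.

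**Figure D3:**
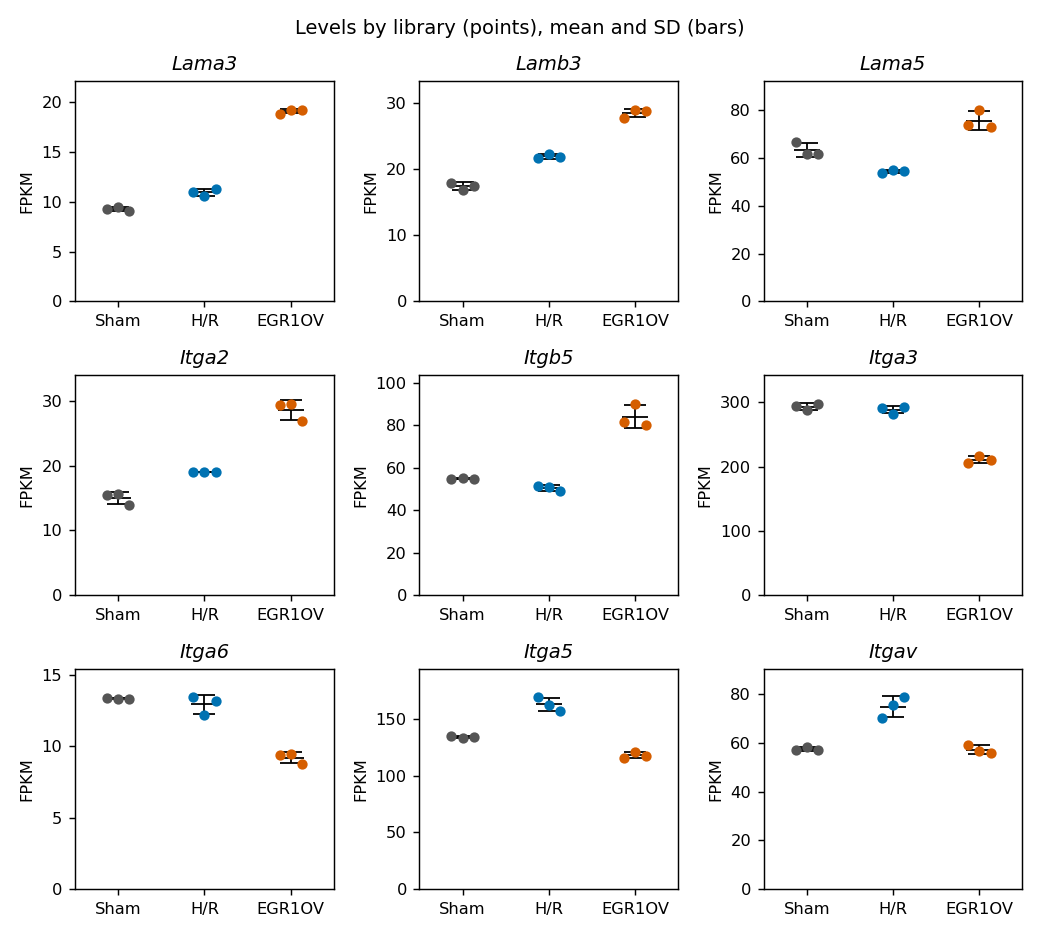
FPKM of 9 members in every library, with 3 points per group, the group mean (horizontal line) and SD (bars), each axis starting at 0. Lama3, Lamb3 and Itga2 step up from Sham to H/R to EGR1OV, Lama5 is lowest in H/R, Itgb5 is high and Itga3 and Itga6 are low in EGR1OV, and Itga5 and Itgav are high in H/R.

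Lama5 (ENSMUSG00000015647, chromosome 2 from 180176373 to 180225859), the main alpha chain of mature tubular basement membrane, was at 66.9, 61.7 and 61.7 FPKM in Sham. H/R libraries held 53.8, 54.9 and 54.8 FPKM and EGR1OV libraries 73.7, 80.2 and 72.9. H/R lay below Sham and EGR1OV above it. Neither change against Sham reached its fold threshold (log2 -0.21 ± 0.04, adjusted p = 0.015 in H/R and 0.25 ± 0.04, adjusted p = 0.0013 in EGR1OV). The difference between EGR1OV and H/R was called, at 0.46 ± 0.04 with an adjusted p of 2.0e-05.

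Lama1 (ENSMUSG00000032796, chromosome 17 from 67697265 to 67822645), the alpha chain of embryonic epithelial basement membrane, was low. It stood at 0.466, 0.530 and 0.586 FPKM in Sham, 0.545, 0.777 and 0.598 in H/R and 1.77, 1.91 and 1.73 in EGR1OV. Sham and H/R overlapped, and EGR1OV was above both. Its mean was 3.42-fold higher in EGR1OV than in Sham, which came to 0.88 ± 0.08 on the log2(FPKM + 1) scale with an adjusted p of 1.5e-05. In H/R the change was 0.10 with a 95% interval of -0.07 to 0.27. Whole reads could not be recovered for Lama1, since its exon length differs from the annotation used here.

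Lamb1, the widespread beta chain, was at 112 ± 1.79 FPKM in Sham, then 119 ± 1.89 in H/R and then 92.6 ± 2.02 in EGR1OV, and its EGR1OV change of -0.28 passed the adjusted p (1.9e-05) but not the fold threshold. Against H/R the Lamb1 difference was -0.36, and it was called at -0.42 with median-ratio scaling or -0.44 with quantile normalization. Lamb2, the beta chain of glomerular and synaptic basement membrane, stayed between 15.5 and 17.2 FPKM. Lamc1, the common gamma chain, stayed between 25.5 and 28.4 FPKM.

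Chain shares, taken within a library, do not depend on scaling. A share depends on all chains of its type, so it can fall while the FPKM of its own gene rises. Lama3 made up 12.6% ± 0.567 of alpha chain FPKM in Sham, then 16.5% ± 0.5002 in H/R and then 19.8% ± 0.742 in EGR1OV (SD, n = 3). Lama5 made up 86.2% ± 0.641, 81.9% ± 0.339 and 78.1% ± 0.754 in the same order, although its mean FPKM was 63.4 in Sham and 75.6 in EGR1OV. The Lama1 share was 0.719% ± 0.106, 0.961% ± 0.179 and 1.86% ± 0.0208. Among beta chains, Lamb3 went from 11.8% ± 0.327 in Sham to 13.97% ± 0.114 in H/R and 20.7% ± 0.270 in EGR1OV, and Lamb1 from 76.6% ± 0.366 to 75.9% ± 0.282 and 67.4% ± 0.270. For the alpha and beta chains named here the groups did not overlap. The exact two-sided permutation p was 0.1, the smallest possible, and 0.114 after adjustment over 33 share tests. Summed over all chains, laminin FPKM was 285 to 296 in Sham, then 292 to 296 in H/R and then 301 to 315 in EGR1OV.

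**Figure D4:**
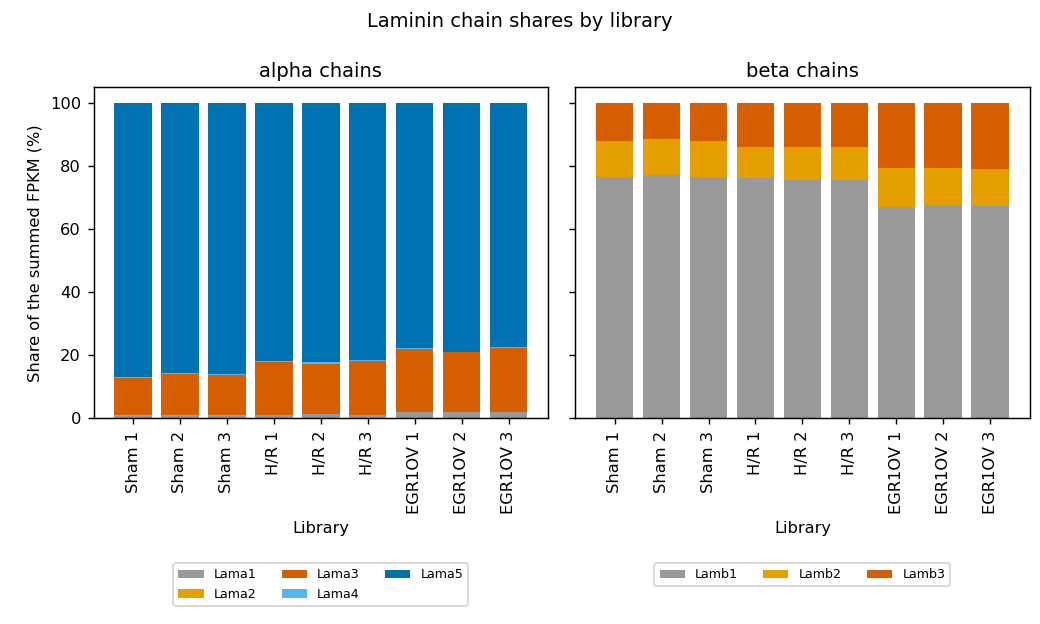
Share of each chain gene in the summed FPKM of the laminin alpha or beta chains, in percent, for each of the 9 libraries. The Lama3 share grows from 12.6% in Sham to 19.8% in EGR1OV and the Lamb3 share from 11.8% to 20.7%.

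Of the 3 tested alpha subunits of laminin receptors, 2 fell in EGR1OV. Itga3 (ENSMUSG00000001507, chromosome 11 from 95044474 to 95076801), which pairs with beta1 and binds epithelial laminins, was at 294, 287 and 298 FPKM in Sham, 291, 282 and 292 in H/R and 205, 217 and 211 in EGR1OV. Sham and H/R overlapped, and all EGR1OV values were lower. The fall in EGR1OV was 1.39-fold (log2 -0.47 ± 0.03, adjusted p = 9.6e-07). Itga6 (ENSMUSG00000027111, chromosome 2 from 71745616 to 71858416), which pairs with beta1 or with beta4, was at 13.4, 13.4 and 13.4 FPKM in Sham, 13.4, 12.2 and 13.2 in H/R and 9.42, 9.498 and 8.74 in EGR1OV. Only EGR1OV stood apart, 1.45-fold lower than Sham (log2 -0.49 ± 0.04, adjusted p = 1.8e-05).

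The log2 ratio of Itga6 to Itga3 was -4.45 ± 0.03 in Sham, then -4.48 ± 0.05 in H/R and then -4.52 ± 0.07 in EGR1OV, with overlap between all groups. Neither gene was called in H/R. The third laminin-binding alpha subunit, Itga7 of muscle, was at 1.38 to 1.67 FPKM in Sham and H/R and 1.72 to 1.996 in EGR1OV, a change of 0.24 ± 0.06 that was under the fold threshold. Voom on recovered reads called it, at 0.39. Itgb4, the hemidesmosome subunit that pairs with alpha6, was at 36.1 ± 0.594 FPKM in Sham, then 37.4 ± 0.623 in H/R and then 31.7 ± 1.27 in EGR1OV, and was not called. Its change in EGR1OV was -0.18 ± 0.03.

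Itgb1 (ENSMUSG00000025809, chromosome 8 from 128685654 to 128733200) stood at 1287, 1277 and 1248 FPKM in Sham, 1303, 1327 and 1339.8 in H/R and 1034, 989.7 and 1029 in EGR1OV. The EGR1OV libraries were lowest. Its change in EGR1OV was -0.32 ± 0.03 against Sham, under the fold threshold, and -0.38 ± 0.03 against H/R, which was called (adjusted p = 2.8e-06), but after quantile normalization both turned positive, at 0.14 and 0.07. The call against H/R was also lost on the fold threshold without H/R replicate 2 or 3 or EGR1OV replicate 2, at -0.38, -0.37 and -0.36.

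Collagen receptor alpha subunits, all of which pair with beta1, moved in different directions. Itga2 (ENSMUSG00000015533, chromosome 13 from 114833081 to 114932100), whose promoter is printed above, was at 15.5, 15.6 and 13.95 FPKM in Sham, 19.1, 19.1 and 19.0 in H/R and 29.4, 29.6 and 26.9 in EGR1OV. Each group lay wholly above the one before. The rise was 1.27-fold in H/R (log2 0.33 ± 0.05, adjusted p = 0.0044) and 1.91-fold in EGR1OV (log2 0.89 ± 0.05, adjusted p = 5.2e-07). EGR1OV was also above H/R, by 0.56 ± 0.05 with an adjusted p of 1.2e-05.

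Itga11 (ENSMUSG00000032243, chromosome 9 from 62677826 to 62783982), the collagen receptor of fibroblasts, was at 3.20, 3.12 and 3.29 FPKM in Sham, 3.49, 3.50 and 3.03 in H/R and 6.27, 5.76 and 4.98 in EGR1OV. H/R overlapped Sham, and EGR1OV was 1.77-fold higher than Sham (log2 0.66 ± 0.07, adjusted p = 8.6e-05). Itga1 (ENSMUSG00000042284, chromosome 13 from 114953096 to 115101964), which binds collagen IV, was at 2.53, 2.42 and 2.46 FPKM in Sham, 2.47, 2.80 and 2.82 in H/R and 1.41, 1.41 and 1.45 in EGR1OV. EGR1OV lay below both other groups and was 1.73-fold lower than Sham (log2 -0.52 ± 0.05, adjusted p = 5.4e-05).

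Among RGD-binding alpha subunits, both tested members rose in H/R. Itga5 (ENSMUSG00000000555, chromosome 15 from 103344286 to 103366763), the fibronectin receptor subunit, was at 135, 133 and 134 FPKM in Sham, 169, 162 and 157 in H/R and 116, 121 and 118 in EGR1OV. H/R was highest and EGR1OV lowest, with no overlap. The H/R rise was 1.21-fold (log2 0.28 ± 0.03, adjusted p = 0.0011), and without H/R replicate 1 it was 0.25 and no longer reached the fold threshold. The EGR1OV change against Sham was -0.18 ± 0.03 and was not called, while the difference from H/R was called at -0.46 ± 0.03 (adjusted p = 1.8e-06).

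Itgav (ENSMUSG00000027087, chromosome 2 from 83724397 to 83806916), which pairs with beta1, beta3, beta5, beta6 and beta8, was at 57.0, 58.6 and 57.2 FPKM in Sham, 70.5, 75.8 and 78.8 in H/R and 59.2, 56.6 and 55.8 in EGR1OV. Only H/R stood apart, 1.303-fold above Sham (log2 0.37 ± 0.04, adjusted p = 0.0011). The EGR1OV change was -0.01 with a 95% interval of -0.10 to 0.08. EGR1OV was lower than H/R by -0.38 ± 0.04 (adjusted p = 5.1e-05), a call that leaving out H/R replicate 2 or 3 or EGR1OV replicate 2 or 3 moved under the fold threshold, at -0.35 to -0.38.

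Itgb1, a partner of Itgav, is described above. Itgb5 (ENSMUSG00000022817, chromosome 16 from 33829665 to 33949153), of the vitronectin receptor, was at 54.5, 55.2 and 54.9 FPKM in Sham, 51.6, 50.8 and 48.9 in H/R and 81.6, 90.3 and 80.4 in EGR1OV. H/R lay just below Sham and EGR1OV far above, a 1.53-fold rise (log2 0.60 ± 0.04, adjusted p = 3.3e-06). Itgb6 (ENSMUSG00000026971, chromosome 2 from 60598292 to 60722643), an epithelial subunit that activates latent TGF-beta, was at 9.79, 9.64 and 9.75 FPKM in Sham, 9.94, 9.36 and 9.06 in H/R and 12.7, 12.6 and 13.4 in EGR1OV. EGR1OV lay above the other groups. The Itgb6 change of 0.38 ± 0.04 against Sham was just under the 1.3-fold threshold on the log2(FPKM + 1) scale, while the FPKM means differed 1.33-fold. It was called without Sham replicate 1, EGR1OV replicate 1 or EGR1OV replicate 2, at 0.38 to 0.39. With 0.1 FPKM added in place of 1, or with voom on recovered reads, it was also called, at 0.41 in each. Against H/R the Itgb6 difference of 0.41 ± 0.04 was called (adjusted p = 2.4e-05), but not after median-ratio scaling (0.35) or quantile normalization (0.28).

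Itgb3, which forms a further vitronectin receptor, was at 18.5, 17.6 and 17.1 FPKM in Sham, 15.3, 15.1 and 14.8 in H/R and 16.2, 16.3 and 15.6 in EGR1OV. Sham was highest. The changes of -0.22 ± 0.04 in H/R (adjusted p = 0.0059) and -0.14 ± 0.04 in EGR1OV (adjusted p = 0.011) were under the fold thresholds. Within a library, which needs no scaling, the log2 ratio of Itgb3 to Itgb5 was -1.63 ± 0.06 in Sham, then -1.74 ± 0.02 in H/R and then -2.39 ± 0.07 in EGR1OV, and the groups did not overlap (exact two-sided permutation p = 0.1, the smallest that 3 against 3 allows, and 0.169 adjusted over 27 ratio tests). Itgb8 was at 0.610 to 1.03 FPKM in the 9 libraries and was not called by limma, while voom on recovered reads called it lower in EGR1OV than in Sham, at -0.39, and than in H/R, at -0.46. The platelet list has 6 genes and holds Itga2b. The 2 that were tested, Pf4 and Ppbp, were called lower in both groups, beside 6.51% of all genes in EGR1OV and 2.65% in H/R. The other 4 were under the minimum, and in EGR1OV the means of Gp9, Gp1ba and Itga2b were above Sham and that of Gp1bb below. The list, mostly Ppbp at 78.8 FPKM in Sham, summed to 81.7 to 87.0 FPKM in Sham, then 58.1 to 58.6 in H/R and then 28.9 to 33.2 in EGR1OV. Platelets also make Itgb3, and their part in its values was not tested.

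Leukocyte integrins were present at low level in these cultures, and those tested, Itgax, Itgb2 and Itgal, were lower in EGR1OV. Of those under the minimum, Itgam and Itgb7 had lower means in EGR1OV than in Sham. The means of Itgae (0.0567 FPKM in Sham and 0.0831 in EGR1OV) and Itgad (0 and 0.0134) were higher. Itgax (ENSMUSG00000030789, chromosome 7 from 128129547 to 128150657), a subunit of macrophages and dendritic cells, was at 2.55, 2.79 and 2.55 FPKM in Sham, 2.46, 2.14 and 2.25 in H/R and 0.414, 0.280 and 0.346 in EGR1OV. These rest on 201 to 234, 189 to 192 and 22 to 33 reads. EGR1OV stood apart, 7.58-fold below Sham, a change of -1.43 ± 0.07 on the log2(FPKM + 1) scale (adjusted p = 1.8e-07). The H/R values were all below Sham, but the change of -0.14 was not called (95% interval -0.30 to 0.01).

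Itgb2 (ENSMUSG00000000290, chromosome 10 from 77530252 to 77565708), the beta partner of Itgax and Itgal, was at 3.31, 3.27 and 3.43 FPKM in Sham, 3.24, 2.83 and 2.94 in H/R and 1.44, 1.46 and 1.54 in EGR1OV, on 166 to 174, 159 to 160 and 73 to 79 reads. Itgal (ENSMUSG00000030830, chromosome 7 from 127296260 to 127335138), of the lymphocyte function antigen, was at 1.56, 1.26 and 1.53 FPKM in Sham, 1.43, 1.32 and 1.22 in H/R and 0.724, 0.605 and 0.724 in EGR1OV. In both genes EGR1OV lay below the other groups. Itgb2 fell 2.25-fold (log2 -0.81 ± 0.05, adjusted p = 2.2e-06) and Itgal 2.12-fold (log2 -0.54 ± 0.08, adjusted p = 3.3e-04). The log2 ratio of Itgal to Itgb2 was -1.21 ± 0.15 in Sham, then -1.18 ± 0.08 in H/R and then -1.12 ± 0.14 in EGR1OV, with overlap. In bulk RNA, fewer cells of a type and less RNA per cell cannot be told apart.

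Itgb2, Itgax and Itgal made up most of the FPKM of the 7 leukocyte integrins. The 7 together were at 7.82, 7.59 and 7.86 FPKM in Sham, 7.54, 6.69 and 6.77 in H/R and 2.81, 2.56 and 2.83 in EGR1OV. A list of 15 macrophage and other leukocyte markers that holds none of them summed to 166 to 171 FPKM in Sham, then 140 to 151 in H/R and then 31.7 to 37.2 in EGR1OV. Of its 14 tested genes 13 were called lower in EGR1OV and 2 in H/R, beside 6.51% and 2.65% of all genes. Its defining genes went from Sham to EGR1OV from 57.7 to 5.46 FPKM for Lyz2, from 31.1 to 4.50 for C1qa, from 6.16 to 1.94 for Csf1r, from 2.68 to 1.36 for Adgre1 and from 0.470 to 0.144 for Ptprc. None of these was at 0. Lymphocyte markers summed to 0.260 FPKM at most, with 5 of 9 in the table, and neutrophil markers to 0.276 at most. The part of these cells in the change of the leukocyte integrins was not tested.

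**Figure D5:**
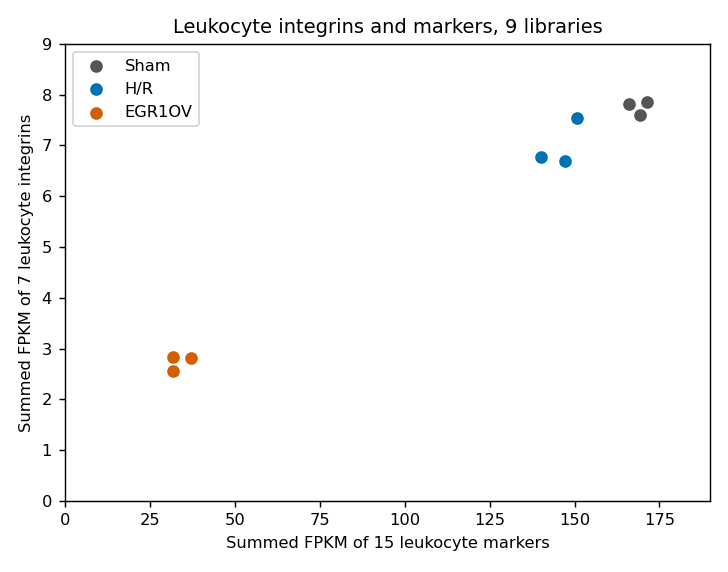
Summed FPKM of the 7 leukocyte integrins (vertical axis) against the summed FPKM of 15 leukocyte markers (horizontal axis), 1 point per library, both axes starting at 0. The 3 EGR1OV libraries lie at 2.56 to 2.83 integrin FPKM and 31.7 to 37.2 marker FPKM, and the Sham libraries at 7.59 to 7.86 and 166 to 171.

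Itga9 (ENSMUSG00000039115, chromosome 9 from 118606690 to 118901003), which binds tenascin and Vcam1, was at 1.08, 0.895 and 0.992 FPKM in Sham, 1.09, 0.750 and 0.843 in H/R and 0.227, 0.223 and 0.309 in EGR1OV, on 120 to 137, 106 to 136 and 28 to 40 reads. H/R overlapped Sham, and EGR1OV was 3.91-fold lower (log2 -0.67 ± 0.09 on the log2(FPKM + 1) scale, adjusted p = 2.3e-04). Itga9 and Itga1 are also made by smooth muscle. The 5 smooth muscle markers, mostly Acta2, summed to 3148 to 3268 FPKM in Sham, then 2889 to 3099 in H/R and then 1221 to 1301 in EGR1OV, with 4 of 5 called lower in EGR1OV. Endothelial markers summed to 11.6 to 11.9, 11.7 to 11.8 and 8.53 to 9.07 FPKM, with 1 of 6 tested called lower in EGR1OV, and fibroblast and pericyte markers to 36.5 to 38.4, 44.4 to 45.1 and 41.5 to 46.1, with 1 of 5 called higher in EGR1OV and 3 of 5 in H/R. Over all genes 9.89% were called higher and 6.51% lower in EGR1OV, and 1.6% higher in H/R. The part of smooth muscle, endothelial, fibroblast and pericyte cells in the changes of Itga1, Itga9 and Itga11 was not tested.

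Other adhesion genes were counted from lists that hold no member. Of 34 tested focal adhesion genes, which link integrins to actin, 1 was called higher and 8 lower in EGR1OV, with a median change of -0.14. Over all genes, EGR1OV against Sham called 9.89% higher and 6.51% lower. The falls were led by Lims2 (14.9 ± 0.410 to 7.43 ± 0.253 FPKM, log2 -0.92), the leukocyte kindlin Fermt3 (log2 -0.88) and Tln2 (log2 -0.86). In H/R 2 were called, both higher, namely the epithelial kindlin Fermt1 (log2 0.40) and the docking protein Nedd9 (log2 0.36), in a comparison that called 4.25% of all genes.

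Of 17 tested basement membrane genes other than laminins, 1 was called higher and 8 lower in EGR1OV, with a median change of -0.37. The shares over all genes were 9.89% higher and 6.51% lower. Col4a3 fell from 97.3 ± 4.98 to 55.1 ± 0.728 FPKM (log2 -0.81) and Col4a1 from 537 ± 13.2 to 355 ± 1.57 (log2 -0.60), both chains of collagen IV, while Smoc2 rose from 8.73 ± 0.288 to 15.1 ± 1.27 (log2 0.72). Smoc2 was also the 1 gene of the list called in H/R, higher by 0.30, in a comparison that called 1.6% of all genes higher. Of 12 tested other integrin ligands, 3 were called higher and 4 lower in EGR1OV, beside 9.89% and 6.51% of all genes. Icam1, the ligand of Itgal with Itgb2, rose from 2.87 ± 0.215 to 12.2 ± 0.340 FPKM (log2 1.77) and Vcam1, a ligand of Itga4 and Itga9, from 2.51 ± 0.0957 to 10.3 ± 0.385 (log2 1.68), while Tgfb3 fell (log2 -0.84). In H/R 4 ligands were called, all higher, beside 1.6% of all genes called higher. They were led by Vcam1 (log2 0.54), Thbs1 (log2 0.27) and Tgfb1 (log2 0.27).

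None of the 3 tested hemidesmosome genes (Plec, Dst and Cd151) and none of the 5 other laminin receptors (Dag1, Bcam, Rpsa, Sdc1 and Sdc4) was called by limma against Sham in either group, and voom on recovered reads called none. At an unadjusted p under 0.05 with no fold threshold, 3 of 3 and 5 of 5 passed in EGR1OV, and 0 of 3 and 2 of 5 in H/R. The share of all genes at that unadjusted cutoff is not given here. Going by the adjusted p alone, 45.9% of all genes passed in EGR1OV and 11.7% in H/R. Median changes of the hemidesmosome genes and the other laminin receptors in EGR1OV were -0.28 and -0.10.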

How the data were processed

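Gene expression was measured by RNA-seq in 9 libraries, 3 each of Sham, H/R and EGR1OV, grouped from the labels. The authors deposited FPKM per gene. The submitters' processing notes list mm9, Bowtie2 2.2.3, HISAT2 2.1.0 and TopHat2 with no role or order, and the counter and annotation are not given in the sources used here. Of the gene positions, 94.6% equal GENCODE M21 (GRCm38), as do those of 34 of 37 members, so coordinates are as deposited and the build conflict remains. Itgb5, Itgb7 and Lama1 are the exceptions. Reads were recovered from FPKM steps and exon lengths, and 94.0% of 162897 values came out whole within 0.02 reads.

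FPKM plus 1 was log2 transformed, and the 13985 genes averaging 0.5 FPKM or more were fitted in limma 3.58.1 (R 4.3.3, eBayes with trend, two-sided) with Benjamini-Hochberg adjustment over all of them. Calls needed an adjusted p under 0.05 and 1.3-fold, or 1.2-fold for H/R against Sham. Shares and ratios were tested by exact permutation (scipy 1.17.1). Voom on the recovered reads and log2 Gm23935, a gene at 1494 to 21700 FPKM, as a covariate were alternatives chosen after the data were seen. Members and lists were chosen with earlier results of these data known. All integrin and laminin members could be named, and of other lists the 3 largest called changes. Scripts were tested on simulated data. Values of 1 member are not reported here.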

Additional observations from a re-analysis of the deposited data

Results flagged for a closer look

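In 7 genes the changes against Sham had opposite signs in EGR1OV and H/R, and the direct difference between the groups was called by limma. The direct comparison called 18.9% of all genes, and the share of all genes that met both conditions was not computed. EGR1OV was below H/R in Itga1 (-0.61 on the log2 scale), Itga5 (-0.46), Itgav (-0.38) and Itgb1 (-0.38). It was above H/R in Itgb5 (0.72), Itgb6 (0.41) and Lama5 (0.46). Both changes share the Sham libraries. For Itgav the 95% interval in EGR1OV included 0 (-0.10 to 0.08). In H/R the interval included 0 for Itga1 (-0.03 to 0.21), Itgb1 (-0.0009 to 0.12) and Itgb6 (-0.13 to 0.05). The signs of those changes are therefore not settled. For Itgb1 the sign turned after quantile normalization, and Itgb6 was no longer called after median-ratio scaling or quantile normalization. No group had 4 libraries, so single libraries were not tested as outliers.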

How the results depend on the processing

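Counts of called members depended most on thresholds. With no fold threshold, EGR1OV against Sham gave 22 and H/R against Sham 7, and a 2-fold threshold gave 1, 0 and, for EGR1OV against H/R, 1 of 26, beside 3.46%, 0.0787% and 3.5% of all genes. Voom on recovered reads called 6, 0 and 4 members at 2-fold, in a fit that kept Lama1, whose whole reads could not be recovered. By limma at an unadjusted p under 0.05 10 members passed in H/R. For neither the voom counts nor this unadjusted count is a share of all genes given here. A minimum of 5 FPKM, with 17 members tested, gave 6 against Sham and 10 against H/R for EGR1OV, beside 17.4% and 20.1% of all genes. Leaving out 1 library gave 13 to 14, 3 to 4 and 15 to 18 called members, and the shares of all genes in those fits are not given here. With 0.1 FPKM added, the EGR1OV differences were -0.188 points against Sham and -0.186 against H/R for the Lama2 share, -0.326 against H/R for the Lama4 share, and 0.41 and 0.093 for the log2 ratio of Itgam to Itgb2, whose values without it were -0.16 and -0.57, so both signs turned.

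Other signs turned as follows. For EGR1OV against Sham, Itgav was -0.035 to 0.0081 with 1 library left out, 0.0023 without Sham replicate 2 and 0.0081 without EGR1OV replicate 3. For H/R against Sham, Itgb8 was -0.021 to 0.072 with 1 library left out, below 0 without Sham replicate 3 (-0.021) or H/R replicate 3 (-0.010). Itga3 was 0.016 with median-ratio scaling or 0.035 with quantile normalization. Quantile normalization gave Itgb1 0.14 against Sham and 0.065 against H/R, in place of -0.32 and -0.38, and, against H/R, Itgb3 -0.042, Lamb2 -0.085 and Lamc1 -0.0012. Lamb2 was -0.020 there after median-ratio scaling. The cause was not tested.

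Same-numbered libraries correlated at -0.021 to 0.062 and differently numbered ones at -0.068 to 0.067. No clear pairing by number was seen, but such small values do not settle whether the numbers pair the libraries. With the replicate block the counts of called members were 13, 4 and 17, as without it. The shares of all genes called with the block are not given here.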
